A study of Mus musculus with 26 samples.

Results

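The genes described here encode the proteasome and the factors that assemble and activate it. Members were taken by name, as every transcript whose mouse symbol starts with Psm, a letter from a to g and a digit. Of the 10104 transcripts listed for either cell type, 45 were members, with 44 of 8530 in oligodendrocyte progenitor cells (OPCs) and 45 of 9751 in oligodendrocytes (OLs). All members but Psme2, which was listed for OLs only, could be compared between the cell types, and Psma8, Psmb8, Psmb9 and Psmb11 were not analysed here.

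The proteasome is the protease that removes ubiquitin-tagged proteins. Its 20S core is a barrel of alpha rings, which gate the entry pore, and beta rings, which carry the cutting sites. The 19S particle caps the barrel, and in it a ring of ATPases unfolds substrates while the non-ATPase subunits bind ubiquitin chains and remove them. Dedicated chaperones assemble the core and the cap and then leave. When proteasome activity falls short, the transcription factor made from Nfe2l1 raises the genes of all subunits together.

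The study asked how mRNA stability changes as OPCs become OLs. OPCs were made in culture from epiblast stem cells of 129S/SvEv mouse embryos, and OLs were made from such OPCs with the thyroid hormone T3, so both groups share 1 strain and no allele was altered. New RNA was labelled for 24 h, from 40 h after seeding, with 5-ethynyluridine (5-EU), which stands in for uridine and allows the RNA to be captured, and RNA was then collected at 0, 1, 2, 4 and 6 h of chase with unlabelled uridine. OPCs had 3 replicates and OLs 2, with 1 library per replicate and time point. Levels are FPKM (read numbers divided by transcript length and library size) that the authors scaled to spike-in RNA. Values at 0 h are taken here as FPKM of whole libraries. The OL replicates are matched to 2 of the OPC replicates, but which ones is not given in the sources used here. By the study's account the OL cultures still hold some undifferentiated OPCs.

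The sum of FPKM over all listed transcripts at 0 h lay between 391712 and 432287 in OPCs and was 350563 and 342224 in OLs, and read numbers behind these values are unknown. Of 11 OL markers, 10 were listed in OLs and 3 in OPCs, and Mbp, a myelin protein gene, was higher in OLs by 9.27 on the log2 scale. Of 8 tested proliferation markers, 7 were lower in OLs. The OPC markers did not move as a group, since 3 of 8 were higher in OLs and 3 lower. None of 6 microglial and 5 epiblast stem cell markers were listed for either cell type, and the neuron list had 1 of 3 tested markers higher in OLs. Of 7 astrocyte markers, Aqp4 was listed for neither cell type, and Gfap and Aldh1l1 were listed for OLs only. Of the other 4 astrocyte markers, S100b and Slc1a2 were higher in OLs, by 4.36 and 1.60 on the log2 scale, Slc1a3 was lower by -0.72, and Gja1 did not pass the test. The part of such other cells in the results was not tested. In bulk cultures, fewer cells of a type and less RNA per cell cannot be told apart.

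The labelled proteasome mRNAs were abundant in both cell types. At 0 h the median member had 86.8, 68.7 and 75.9 FPKM in OPC replicates 1, 2 and 3, and 61.4 and 58.2 FPKM in OL replicates 1 and 2. The median over all listed transcripts was between 15.6 and 19.1 FPKM in the same libraries. Per unit of length, the constitutive beta ring genes were the highest group, with medians of 217, 158 and 174 FPKM in OPCs and 174 and 131 FPKM in OLs. The 19S assembly chaperones Psmd5, Psmd9 and Psmd10 had medians between 14.2 and 16.1 FPKM in OPCs, and 19.3 and 16.1 FPKM in OLs.

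Ceiling counts of half-life were higher for the core than for the cap. Half-life is the authors' fit of an exponential decay to each transcript in each replicate, with a ceiling of 6 h because the chase ends there. All 7 constitutive beta ring mRNAs, including Psmb5, Psmb6 and Psmb7, which encode the catalytic subunits, were at that ceiling in all 5 replicates. Of the 14 core subunits, 11 were at the ceiling in all 5 replicates, against 4 of 17 subunits of the 19S particle. Over all 44 members this count was 17, and it was 16.1% of the 8112 transcripts with a half-life in every replicate. These shares are descriptions, as members of a complex are not replicates.

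**Figure D1:**
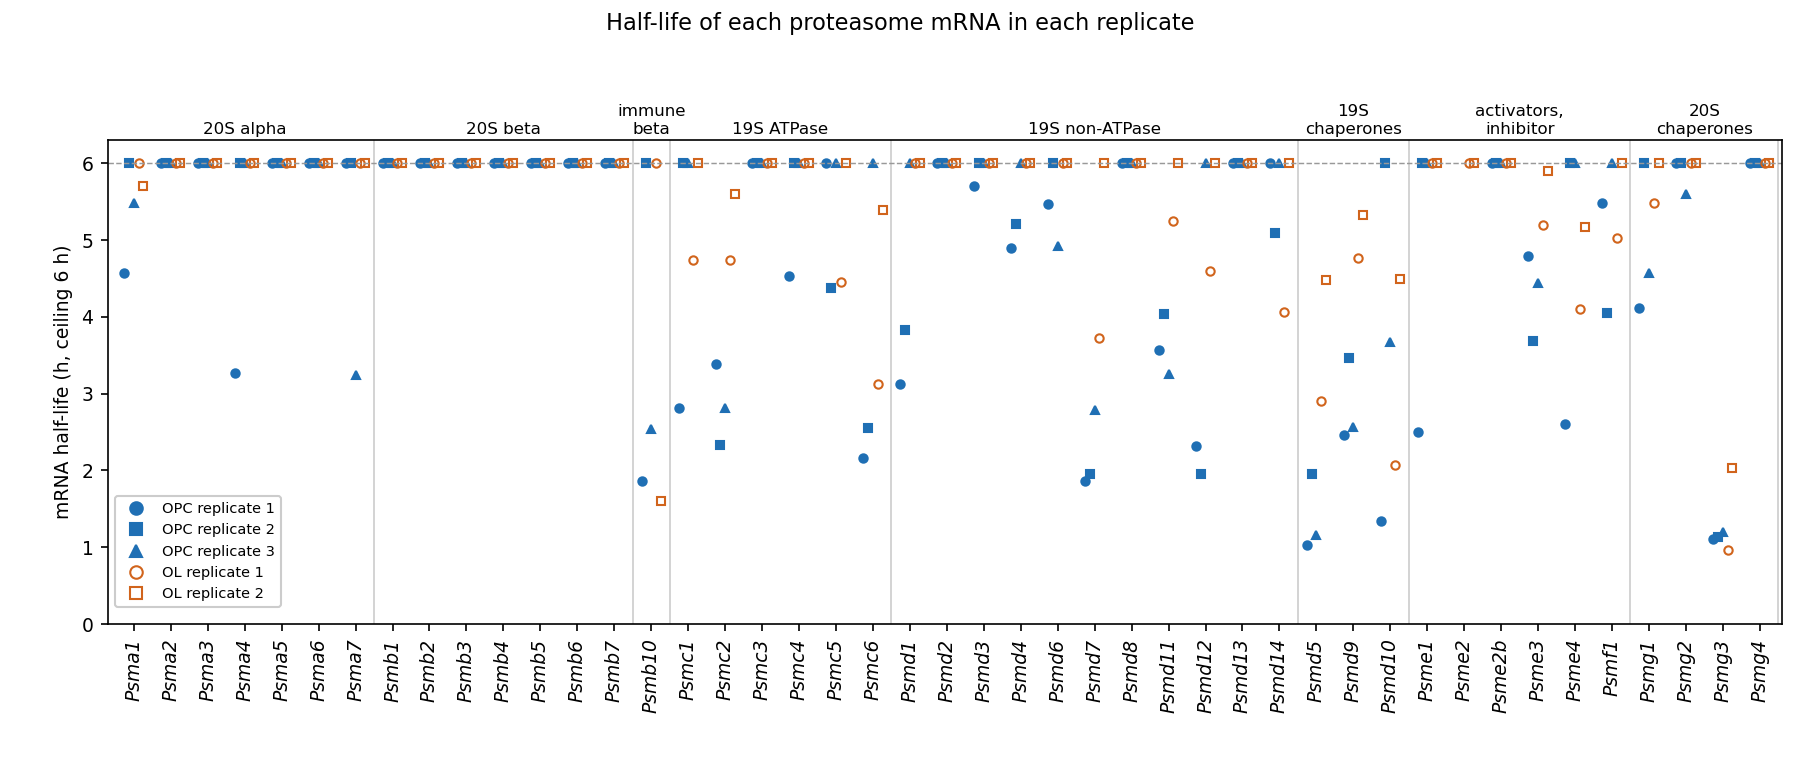
Half-life in hours (vertical axis, linear, ceiling at the dashed line) of each proteasome mRNA, grouped by the place of its product, with 1 point per replicate (filled blue, OPC replicates 1 to 3; open orange, OL replicates 1 and 2). The 7 constitutive beta ring mRNAs lie at 6 h in all replicates, while Psmg3 lies between 0.965 and 2.03 h.

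In each replicate more members were at the ceiling than among all transcripts. In OPC replicates 1, 2 and 3 the members at the ceiling were 21, 30 and 30 of 44, which is 47.7%, 68.2% and 68.2%, and the share over all 8112 transcripts was 24.5%, 25.3% and 31.6%. In OL replicates 1 and 2 they were 28 and 34 of 44, which is 63.6% and 77.3%, against 42.3% and 38.8% of all transcripts. The median transcript had a half-life between 2.08 and 2.83 h in OPCs and of 4.53 and 4.44 h in OLs. The median member was at 5.59 h in OPC replicate 1 and at the ceiling of 6.00 h in the other 4 replicates.

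The level left at 6 h has no ceiling, and its group medians ran from the core rings down to the chaperones in OPCs. The median beta ring mRNA was at 71.4%, 137% and 100.5% of its 0 h level in OPC replicates 1, 2 and 3, and at 93.1% and 87.4% in OL replicates 1 and 2. The median alpha ring mRNA was at 57.5%, 87.9% and 70.5% in OPCs, and at 59.7% and 105% in OLs. The ATPase ring stood at 28.3%, 49.5% and 54.2% in OPCs, and at 35.2% and 72.9% in OLs. The 11 non-ATPase subunits were close to it, at 34.0%, 33.8% and 48.7% in OPCs and 41.2% and 69.1% in OLs. Lowest in OPCs were both sets of chaperones: those of the 19S particle stood at 2.29%, 10.2% and 19.8%, and the Psmg chaperones of the core at 8.64%, 19.4% and 15.8%. In OLs these medians were 15.6% and 45.9% for the 19S chaperones and 35.9% and 56.5% for the Psmg chaperones. Single members overlapped: Psmg4 stood at 52.1%, 150% and 143% in OPCs, and in OPC replicate 1 Psmd9, at 47.4%, lay above the core subunits Psma1 and Psma4, at 36.3% and 28.1%. The median over all transcripts was 14.4%, 10.98% and 17.7% in OPCs and 31.5% and 36.6% in OLs, so the core and cap groups lay above it in all 5 replicates, and the 19S chaperones lay below it in 3 of them and above it in OPC replicate 3 and OL replicate 2.

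**Figure D2:**
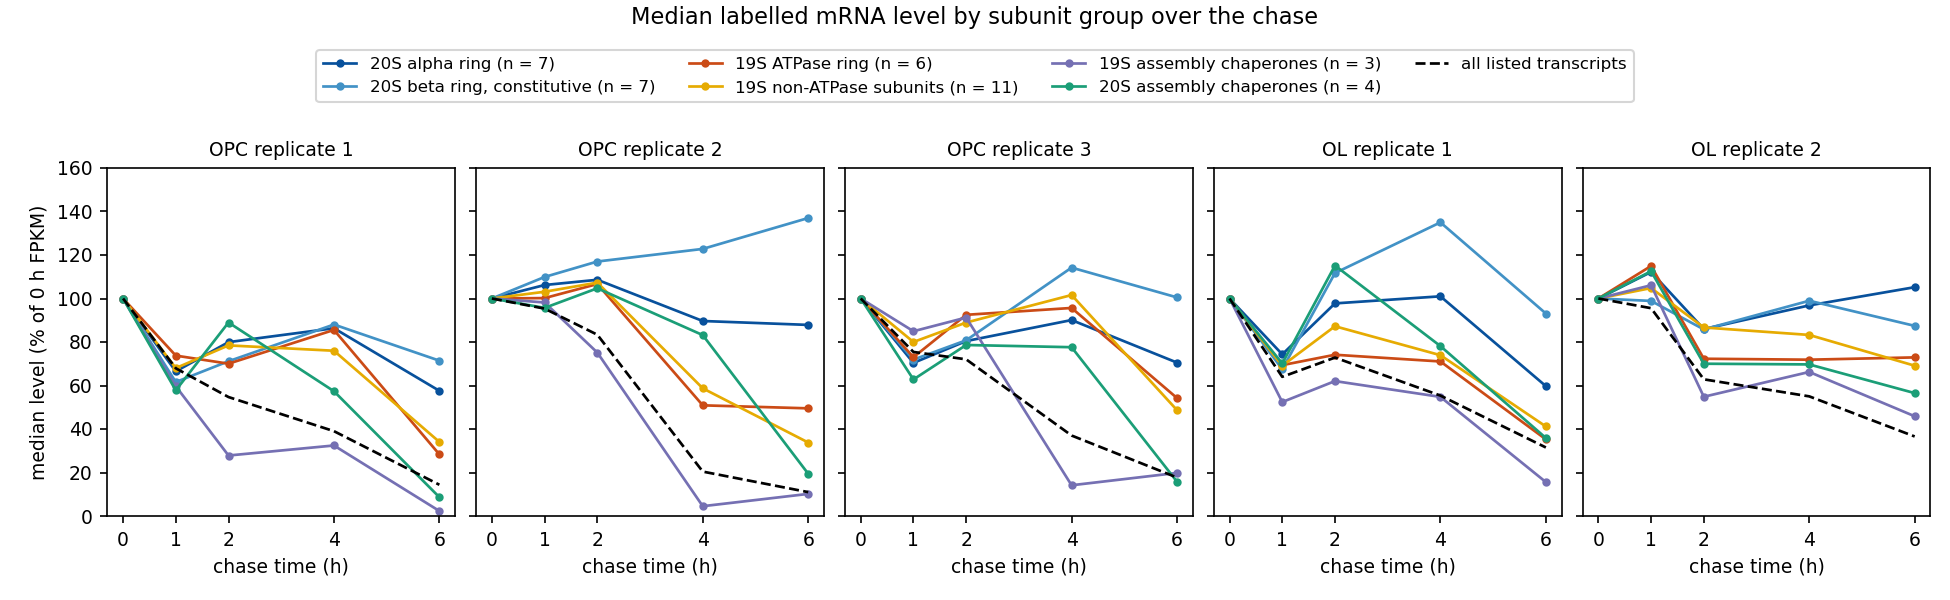
Median level of labelled mRNA (vertical axis, % of the 0 h FPKM of the same replicate) against chase time in hours for 6 groups of proteasome genes and for all listed transcripts (dashed), with 1 panel per replicate. The core rings stay highest at 6 h in all 5 panels, and the 19S chaperones fall to 2.29% in OPC replicate 1.

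Within the 20S core, Psma1 had the lowest mean half-life percentile of the alpha ring, with 4.57, 6.00 and 5.48 h in OPCs and 6.00 and 5.71 h in OLs. Psma4 fell below the ceiling only in OPC replicate 1, at 3.28 h, and Psma7 only in OPC replicate 3, at 3.24 h. The other alpha ring mRNAs, Psma2, Psma3, Psma5 and Psma6, were at the ceiling throughout. Psmb10, the subunit that replaces Psmb7 in the immunoproteasome of interferon-treated and immune cells, was listed at 6.71 to 11.8 FPKM at 0 h in all replicates. Its half-lives of 1.86, 6.00 and 2.55 h in OPCs and 6.00 and 1.60 h in OLs spread over most of the measured range, so no level of stability can be given for it.

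The ATPase ring was uneven. Psmc3 was at the ceiling in all 5 replicates, whereas Psmc6, whose protein pairs with that of Psmc3 during assembly, had half-lives of 2.16, 2.55 and 6.00 h in OPCs and 3.13 and 5.40 h in OLs. The Psmc6 value of 6.00 h came from a transcript that stood at 71.3% at 4 h and at 6.73% at 6 h in that replicate. Psmc2 had the lowest mean percentile of the ring, with half-lives of 3.38, 2.34 and 2.82 h in OPCs and 4.75 and 5.60 h in OLs. Psmc1, Psmc4 and Psmc5 had 3 or 4 replicates at the ceiling, and no value under 2.81 h.

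Among the non-ATPase subunits, Psmd2, Psmd8 and Psmd13 were at the ceiling throughout. Psmd2 encodes a docking platform for ubiquitin receptors and shuttles. At the other end was Psmd7, with half-lives of 1.86, 1.96 and 2.79 h in OPCs and 3.72 and 6.00 h in OLs. Psmd14, the deubiquitinase that forms a dimer with the product of Psmd7, had 6.00, 5.09 and 6.00 h in OPCs and 4.06 and 6.00 h in OLs. Psmd11, a scaffold of the lid of the cap, had 3.57, 4.04 and 3.25 h in OPCs and 5.25 and 6.00 h in OLs, and Psmd12, its neighbour in the lid, had 2.32, 1.96 and 6.00 h in OPCs and 4.59 and 6.00 h in OLs. The Psmd12 value of 6.00 h in OPC replicate 3 came from a transcript that stood at 111.2% at 4 h and at 14.05% at 6 h. Psmd1, Psmd3, Psmd4 and Psmd6 had 3 or 4 replicates at the ceiling, both OL replicates among them, and no value under 3.12 h.

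The assembly chaperones held the shortest-lived members. Psmg3, whose protein works as a dimer with that of Psmg4 in building the alpha ring, had half-lives of 1.10, 1.13 and 1.201 h in OPCs and 0.965 and 2.03 h in OLs. The mRNA of its partner Psmg4 was at the ceiling in all 5 replicates. Psmg1, which pairs with Psmg2, had 4.11, 6.00 and 4.57 h in OPCs and 5.48 and 6.00 h in OLs. Among the 19S chaperones, Psmd5 had half-lives of 1.02, 1.96 and 1.16 h in OPCs and 2.90 and 4.48 h in OLs, and Psmd9 had 2.46, 3.47 and 2.57 h in OPCs and 4.77 and 5.33 h in OLs. For both mRNAs every OL value lay above every OPC value. Psmd10 varied more among replicates than between cell types, at 1.34, 6.00 and 3.67 h in OPCs and 2.07 and 4.49 h in OLs. Its 6.00 h in OPC replicate 2 was fitted to low levels of 6.58 FPKM at 0 h, 0 at 4 h and 4.40 at 6 h.

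Of the activators and the inhibitor, Psme3, the nuclear activator, had half-lives of 4.80, 3.68 and 4.44 h in OPCs and 5.195 and 5.90 h in OLs. Psme1 was under the ceiling only in OPC replicate 1, at 2.50 h. Psme4, another activator, ranged from 2.60 to 6.00 h, and the inhibitor Psmf1 from 4.06 to 6.00 h. Psme2b was at the ceiling throughout, but it is a single-exon gene at chr11:48945354-48946190 (GRCm38) whose coding sequence is identical to that of Psme2 at 99.3% of 717 positions. Reads of such copies can be assigned to either gene, and the values of Psme2b and of Psme2, 34.8 and 26.0 FPKM at 0 h in OLs, are therefore uncertain.

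No member's half-life differed between OLs and OPCs at an adjusted p of 0.05 in limma, where 3.39% of 8112 transcripts were longer and 0.148% shorter in OLs. At an unadjusted p under 0.05 there were 5 members, all longer in OLs, and the smallest adjusted p was 0.101, for Psmd11 (log2 change 0.64 ± 0.13, SE), whose direction turned after rescaling to 1 mean decay curve (-0.24) and with replicates centred (-0.26). The median member changed by 0.02 on the log2 scale and the median transcript by 0.37. A transcript at the ceiling in both cell types cannot show a change in this measure, and 17 of the 44 members were in that position.

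The slope of log2(FPKM + 1) against chase time, in log2 units per h, has no ceiling and was tested over all libraries. In OPCs 27 of 44 members fell during the chase, where 81.7% of 8530 transcripts fell. On a scale where each later library is set to the 0 h median of its replicate, 4 members fell and 31 rose in OPCs, beside 24.7% and 33.5% of all transcripts, and 0 fell and 28 rose in OLs, beside 15.01% and 27.95%. Psmb2 and Psmb3 of the beta ring rose, by 0.08 ± 0.03 and 0.10 ± 0.03 per h (SE, adjusted p = 0.0285 and 0.00704), and 4.92% of all transcripts did so. Neither passed without OPC replicate 2 (adjusted p = 0.196 and 0.138), and Psmb2 did not pass without OPC replicate 3 (adjusted p = 0.0938). The other 5 beta ring mRNAs had slopes between 0.01 and 0.05, and none of them passed the test in either direction. In OLs 19 of 45 members fell, against 65.1% of 9751 transcripts, and none rose at the adjusted or the unadjusted threshold, against 1.03% of all transcripts. Fewer members fell in OLs without OL replicate 1, and no count is given for that fit, which leaves 1 OL replicate. The median slope was -0.15 for members and -0.38 for all transcripts in OPCs, and -0.09 and -0.20 in OLs.

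By groups, beside the 81.7% of all transcripts that fell in OPCs, 4 of 7 alpha ring mRNAs, 5 of 6 ATPase mRNAs, 8 of 11 non-ATPase mRNAs, 3 of 3 cap chaperone mRNAs, 3 of 4 core chaperone mRNAs, 3 of 5 mRNAs of activators and inhibitor, and Psmb10 fell. In OLs, beside 65.1% of all transcripts, the corresponding counts were 1 of 7, 3 of 6, 6 of 11, 3 of 3, 3 of 4 and 3 of 6, and Psmb10 did not pass. In both cell types 0 of 7 beta ring mRNAs fell. The steepest fall in OLs was that of Psmg3, at -0.42 ± 0.09 per h (SE, adjusted p = 0.000633), and its slope in OPCs was -0.66 ± 0.09 (adjusted p = 4.07e-07). After rescaling to the 0 h median these slopes were -0.20 (adjusted p = 0.110) and -0.39.

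A difference in slope between the cell types was tested with an interaction term. Psmg2, Psmc2, Psmd5, Psmd7 and Psmc6 declined more slowly in OLs, which is 5 of 44 members where 27.5% of 8177 transcripts did so. No member declined faster in OLs at the adjusted or the unadjusted threshold, and 0.232% of all transcripts did. The share of members is below the background in this count. A member that does not fall in OPCs has little room for a slower decline in OLs. In OPCs 27 of 44 members fell, beside 81.7% of all transcripts. The median difference in slope was 0.04 for members and 0.14 for all transcripts.

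Psmd5, which holds the ATPases Psmc1 and Psmc2 during assembly of the cap, lies at chr2:34849734-34870962 on the minus strand with 10 exons. At 6 h its mRNA was at 2.29%, 0% and 6.80% of the 0 h level in OPCs and at 15.6% and 39.5% in OLs. Its OPC slopes of -0.64, -0.85 and -0.61 per h were all steeper than its OL slopes of -0.36 and -0.21. The difference was 0.41 ± 0.11 per h (SE, adjusted p = 0.00548), and it did not pass without OL replicate 2 (0.34, adjusted p = 0.0740).

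Psmc2, at chr5:21785283-21803787 on the plus strand with 13 exons, stood at 2.94%, 16.0% and 0% at 6 h in OPCs and at 21.2% and 63.8% in OLs. The slopes were -0.66, -0.45 and -0.91 per h in OPCs and -0.31 and -0.14 in OLs, with a difference of 0.45 ± 0.13 (SE, adjusted p = 0.0109). Psmc6, at chr14:45329788-45349705 on the plus strand with 14 exons, stood at 4.67%, 6.24% and 6.73% in OPCs and at 19.8% and 52.8% in OLs, with a difference in slope of 0.33 ± 0.10 (SE, adjusted p = 0.0177). Psmd7, at chr8:107580381-107588464 on the minus strand with 7 exons, stood at 6.13%, 5.55% and 11.3% in OPCs and at 14.3% and 54.4% in OLs, with a difference of 0.34 ± 0.10 (SE, adjusted p = 0.00958). For these 3 mRNAs the OPC values at 6 h lay below both OL values, and OL replicate 2 was the highest of the 5. Without OL replicate 2 none of them passed (adjusted p = 0.158, 0.250 and 0.208), Psmc2 and Psmc6 did not pass without OL replicate 1 (adjusted p = 0.0529 and 0.0503), and Psmc6 did not pass without OPC replicate 2 (adjusted p = 0.0546). Without the 6 h libraries all 3 were lost: the difference was 0.11 for Psmc2, -0.03 for Psmc6 and 0.36 for Psmd7 (adjusted p = 0.467, 0.889 and 0.0663).

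Psmg2, at chr18:67641599-67654162 on the plus strand with 7 exons, had the largest difference in slope, 0.61 ± 0.16 per h (SE, adjusted p = 0.00715). Its level was 49.3, 44.3 and 47.6 FPKM at 0 h and 31.4, 34.9 and 47.9 FPKM at 4 h in OPCs, and at 6 h it was listed at 0, 0 and 3.74 FPKM. In OLs it was 30.0 and 33.7 FPKM at 0 h and 16.1 and 21.3 FPKM at 6 h. At 4 h it was at 63.8%, 78.7% and 100.7% of its 0 h level in OPCs, and most of the fall lay between 4 and 6 h. The half-life fit, by least absolute deviations, put the same mRNA at 6.00, 6.00 and 5.60 h in OPCs, so the low levels at 6 h did not show in its half-life. Without the 6 h libraries the difference in slope was 0.01 (adjusted p = 0.954), and without either OL replicate it did not pass (adjusted p = 0.0831 and 0.0715 without replicates 1 and 2).

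**Figure D3:**
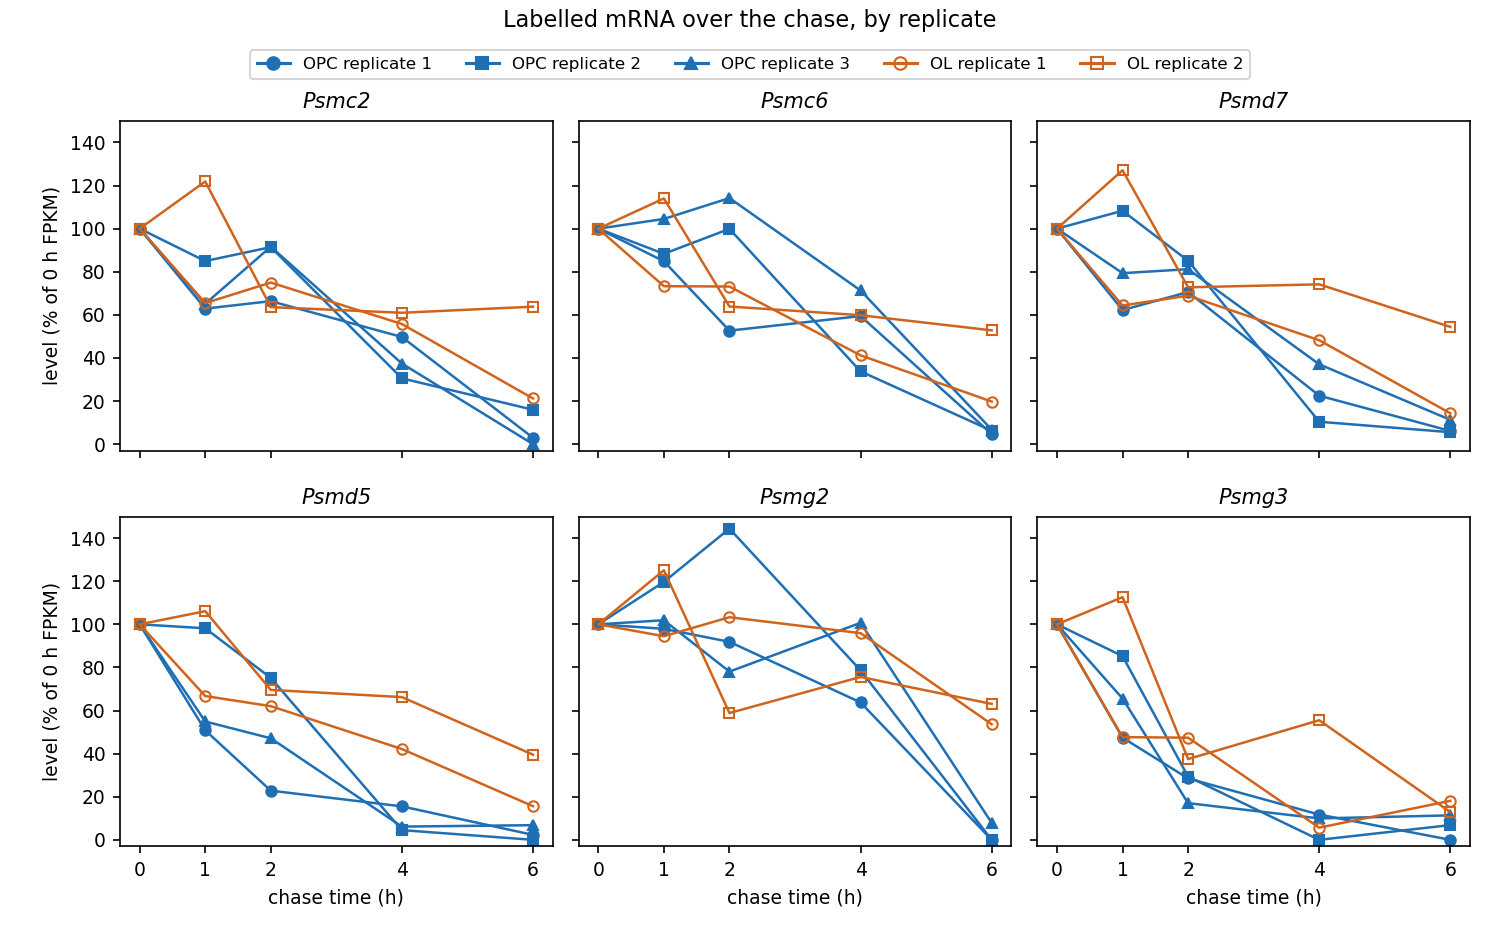
Level of labelled mRNA (vertical axis, % of the 0 h FPKM of the same replicate) against chase time in hours for the 5 members whose slope differed between the cell types and for Psmg3, with 1 line per replicate (filled blue, OPC; open orange, OL). At 6 h both OL lines lie above the OPC lines for all 6 mRNAs, and Psmg2 in OPCs drops between 4 and 6 h.

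At 6 h, 5, 2 and 2 of 44 members were listed at 0 FPKM in OPC replicates 1, 2 and 3, and none of 45 in OLs, while 15.7%, 21.6% and 16.4% of all transcripts were listed at 0 in OPCs and 4.08% and 0.790% in OLs. Of the 5 members with a different slope, Psmg2, Psmc2 and Psmd5 had such a zero and Psmc6 and Psmd7 had none, and Psmb10, Psmd10, Psme1 and Psmg3 had one with no difference called. The part of the zeros in the slopes was not tested. The spike-in factor of a library is shared by all its transcripts. After each later library was rescaled to the 0 h median, members lay on the other side of the slope test: 1 of 44 (Psmd5, 0.39) declined more slowly in OLs and 26 faster, against 8.78% and 21.4% of all transcripts. The median member then differed by -0.22 per h. That rescaling removes the common decline, whose median slope was steeper in OPCs (-0.38 per h) than in OLs (-0.20). An mRNA that stays level in both cell types then gets a difference below 0 by construction. No faster decline in OLs is read from these counts. The direction of the median difference thus depended on the scale. All 5 members named above kept their direction after rescaling, with 0.66 for Psmg2, 0.34 for Psmc2, 0.11 for Psmd7 and 0.10 for Psmc6, none of which passed (adjusted p = 0.0590, 0.223, 0.305 and 0.488).

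Labelled RNA at 0 h was compared between the cell types next. Of 44 members, 7 were lower in OLs, where 17.5% of 8177 transcripts were lower, and none were higher at the adjusted or unadjusted threshold, where 14.1% of all transcripts were higher. In direction alone, 31 members were below 0, with a median of -0.20 on the log2 scale against -0.01 for all transcripts. By groups, 3 of 4 core chaperones, 1 of 7 alpha ring, 0 of 7 beta ring, 1 of 6 ATPase, 1 of 11 non-ATPase and 0 of 3 cap chaperone mRNAs were lower, and so was 1 of 5 tested activators and inhibitor.

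Psmg1, which starts core assembly together with Psmg2, had 56.1, 42.0 and 44.0 FPKM in OPCs and 15.4 and 23.8 FPKM in OLs (log2 change -1.25 ± 0.24, SE, adjusted p = 0.00458). Psme3 had 92.7, 80.4 and 81.1 FPKM in OPCs and 45.8 and 43.2 FPKM in OLs (-0.91 ± 0.17, adjusted p = 0.00415). Psmg4 had 72.2, 48.5 and 60.1 FPKM in OPCs and 35.9 and 33.4 FPKM in OLs (-0.76 ± 0.21, adjusted p = 0.0226). The OL values of all 3 lay below all OPC values. Psmg1 lies at chr16:95979933-95990960 on the minus strand with 7 exons, Psme3 at chr11:101316213-101323537 on the plus strand with 11 exons, and Psmg4 at chr13:34162964-34178173 on the plus strand with 3 exons.

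The other 4 changes were smaller. Psma7 had 140, 87.4 and 127 FPKM in OPCs and 82.4 and 57.6 FPKM in OLs (log2 change -0.74 ± 0.25, SE, adjusted p = 0.0447). Psmg2 had a change of -0.55 ± 0.18 (adjusted p = 0.0470) with the 0 h levels given above. Psmc4, an ATPase, had 111, 83.4 and 91.0 FPKM in OPCs and 64.6 and 63.9 FPKM in OLs (-0.55 ± 0.19, adjusted p = 0.0482). Psmd11 had 99.7, 83.8 and 91.6 FPKM in OPCs and 61.4 and 63.7 FPKM in OLs (-0.54 ± 0.17, adjusted p = 0.0387).

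Which of these passed depended on single libraries and on the model. Without OPC replicates 1, 2 and 3 in turn, 3, 11 and 2 members were lower in OLs. All transcripts called, in either direction, were 2704, 2912 and 1446 in these fits and 2586 with every library kept. Leaving out an OL replicate leaves 1 OL sample, and no count of members is given for it. Psme3 passed in all 10 alternatives, with adjusted p between 0.00432 and 0.0363. Psmg1 passed in 9 and was at 0.0581 without OL replicate 1. Psmg4 passed in 7, and was lost without OPC replicate 3 or either OL replicate, with adjusted p up to 0.123. Psma7, Psmg2, Psmc4 and Psmd11 passed in 3 each. With all libraries kept, these 4 did not pass without an intensity trend (adjusted p between 0.0795 and 0.0973), with libraries centred on their median (0.0547 to 0.0685) or with the replicate number as a block (0.0506 to 0.178).

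**Figure D4:**
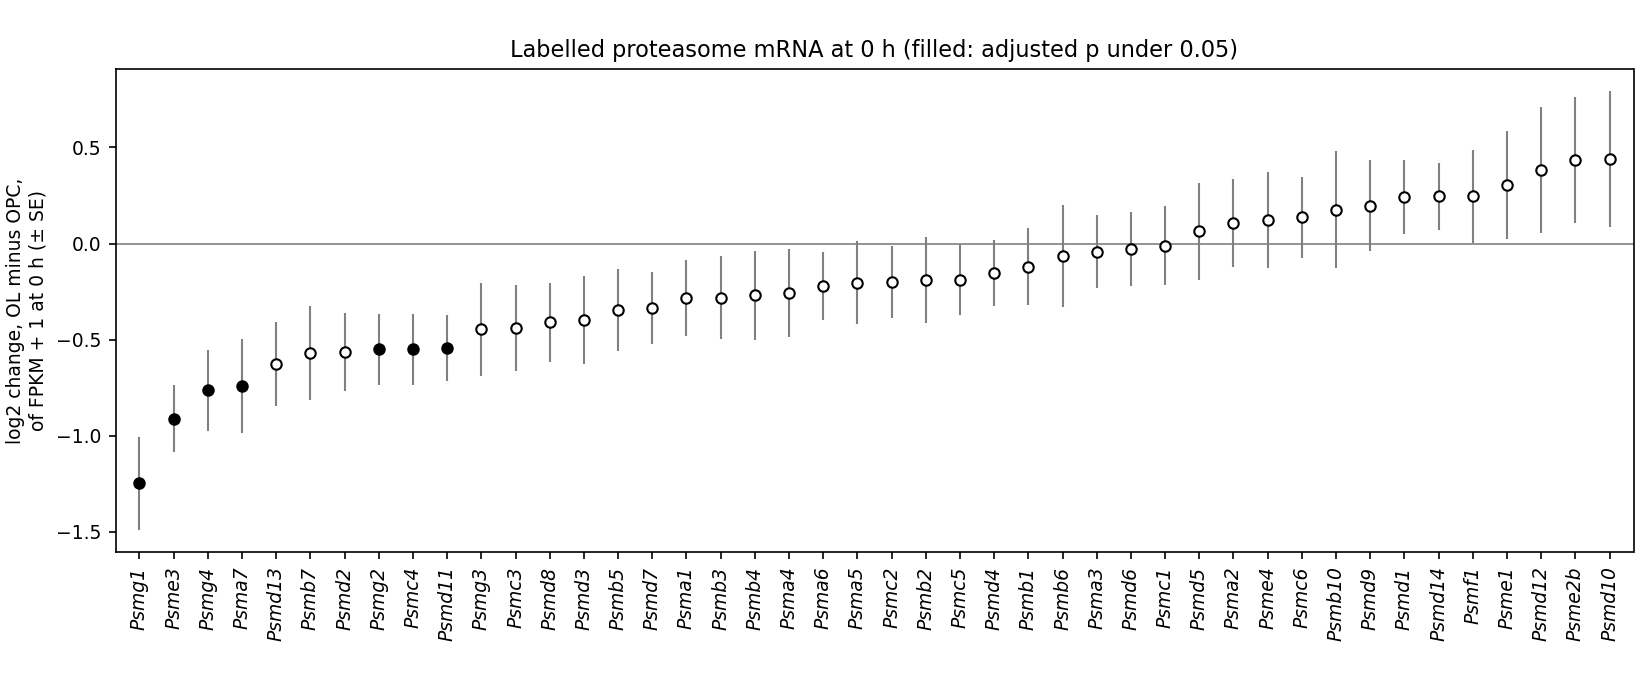
Difference in labelled RNA at 0 h (vertical axis, log2 of FPKM + 1, OL mean minus OPC mean, with SE from limma, 3 OPC and 2 OL replicates) for the 44 members listed in both cell types, in order of size. Filled points, all below 0, mark the 7 members with an adjusted p under 0.05; Psmg1 is lowest at -1.25.

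The promoters of Psmg1 and Psme3 are shown because these members had the largest differences at 0 h. Each run covers 250 bases before to 50 bases after the transcript start on the gene's strand, from RefSeq on GRCm38.p6, at chr16:95990911-95991210 for Psmg1 and chr11:101315963-101316262 for Psme3. Capitals mark a match to CCAAT on either strand, the box bound by nuclear factor Y.
Psmg1: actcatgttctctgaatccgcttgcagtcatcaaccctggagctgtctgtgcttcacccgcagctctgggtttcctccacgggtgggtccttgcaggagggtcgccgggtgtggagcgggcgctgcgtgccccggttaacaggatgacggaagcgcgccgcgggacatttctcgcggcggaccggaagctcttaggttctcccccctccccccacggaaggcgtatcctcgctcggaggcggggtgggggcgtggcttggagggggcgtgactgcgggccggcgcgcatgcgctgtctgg
Psme3: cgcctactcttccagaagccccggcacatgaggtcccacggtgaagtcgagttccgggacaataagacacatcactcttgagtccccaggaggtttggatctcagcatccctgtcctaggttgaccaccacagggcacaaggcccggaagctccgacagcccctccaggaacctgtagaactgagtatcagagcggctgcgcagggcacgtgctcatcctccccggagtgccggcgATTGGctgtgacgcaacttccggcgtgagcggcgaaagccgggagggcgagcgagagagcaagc

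Promoter sequence was matched for 38 member genes, with 41 windows. CCAAT, searched on both strands, was found in 12 of them and in 37.4% of 32851 windows of all genes. The core of the antioxidant response element, TGACNNNGC, through which the Nfe2l1 product raises proteasome genes, was found in 6 of 41, those of Psmb5, Psmb6, Psmc6, Psmd12, Psmd9 and Psme4, and in 12.4% of all windows. Of the 7 members that were lower in OLs at 0 h, Psmg2 had no matched promoter. Those of Psma7, Psmc4, Psmd11, Psme3, Psmg1 and Psmg4 held no TGACNNNGC in this window. At a share of 12.4% over all windows, none among so few promoters says nothing particular about these members. The motifs do not contain each other, and a match is a description only.

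The mRNAs of the proteasome were short. Their median length was 1435 nucleotides against 3162 for all transcripts with a half-life in every replicate, and the median 3′ untranslated region (3′ UTR) was 198 nucleotides against 1173, with 7 of 44 members above the latter. ATTTA, the pentamer at the heart of AU-rich decay elements, was found at least once in the 3′ UTR of 15 of 44 members (34.1%) and of 70.4% of 8101 transcripts. The 15 members with it stood at a median of 42.9% at 6 h in OPCs and 53.0% in OLs, and the 29 without it at 55.5% and 73.4%.

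Copies of the pentamer occurred in stable and in less stable members. The site with the most A and T within 12 bases of the pentamer is shown for the mRNAs with the most copies, taken from the GENCODE annotation of GRCm38, with the pentamer in capitals. Psma2 (7 copies, chr13:14626308-14626336, plus strand), Psmb1 (6 copies, chr17:15475677-15475705, minus strand) and Psma3 (5 copies, chr12:70995023-70995051, plus strand) were at the half-life ceiling in all replicates, and Psmd5 (4 copies, chr2:34851153-34851181, minus strand) and Psmc6 (4 copies, chr14:45349628-45349656, plus strand) were among the least stable.
Psma2: acattacataaaATTTAgaaatagcttta
Psmb1: ttatctggatatATTTAtttattttgaga
Psma3: aataatttttagATTTAtttttgtgggtt
Psmd5: taaaaaaaaaagATTTAtgtaaatatatg
Psmc6: aaaattgagattATTTAtagttaattctt

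Psmg3, the shortest-lived member, and Psmd7 had no copy of the pentamer, in 3′ UTRs of 329 and 503 nucleotides. Psme2 and Psme2b share their site, at chr14:55587442-55587470 and chr11:48945356-48945384, both on the minus strand, and the letters of the window are the same in both.
Psme2: ggaaaataaatgATTTAtactttatgtat
Psme2b: ggaaaataaatgATTTAtactttatgtat

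Across the 44 members, the level left at 6 h went weakly with mRNA features. Spearman's rho, over mRNAs that share libraries and scale factors, was -0.32 in OPCs and -0.41 in OLs for 3′ UTR length, and -0.36 and -0.37 for mRNA length. It was 0.51 and 0.41 for the mean log2 level at 0 h, which also sets how well a low value can be measured. For the codons at the centre of the study, rho was -0.22 and -0.08 for the share of UUU among phenylalanine codons, and -0.36 and -0.24 for the share of AAA among lysine codons. The member medians of these shares were 50.0% and 39.9%, against 44.7% and 37.2% for all transcripts.

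Genes that work with the proteasome were read by the same measures, and their counts stand against the shares over all transcripts, of which 81.7% fell and 4.92% rose in OPCs, 65.1% fell in OLs and 27.5% declined more slowly in OLs, and 14.1% were higher and 17.5% lower in OLs at 0 h. Nothing particular to these lists is read from their counts. Of 10 listed transcription factors of proteasome genes and their processing enzymes, all 10 fell in OPCs, with a median slope of -0.48 per h, and 8 of 11 fell in OLs. The factor Nfe2l1 had half-lives of 5.26, 3.90 and 3.65 h in OPCs and 6.00 h in both OL replicates, and its slope differed by 0.25 ± 0.08 per h (SE, adjusted p = 0.0225). Ddi2, the protease that activates the Nfe2l1 product, had 0.328, 0.760 and 0.938 h in OPCs and 1.83 and 1.505 h in OLs. Neither the half-life nor the slope of Ddi2 differed between the cell types at the threshold. In this list 4 of 10 declined more slowly in OLs, and Ngly1, the glycanase that also processes that product, was higher in OLs at 0 h (log2 change 1.08 ± 0.27, adjusted p = 0.0155).

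Among 17 listed partners of the proteasome, 15 fell and 2 rose in OPCs, beside 81.7% and 4.92% of all transcripts, and 6 declined more slowly in OLs. The largest difference was that of Adrm1, a ubiquitin receptor of the cap, at 0.68 ± 0.10 per h (SE, adjusted p = 0.000101), with half-lives of 1.94, 1.96 and 1.46 h in OPCs and 4.66 and 6.00 h in OLs. Usp14, a deubiquitinase on the cap, and Akirin2, which takes proteasomes into the nucleus, differed by 0.38 and 0.34 per h (adjusted p = 0.00412 and 0.0141). At 0 h 3 of 17 partners were higher in OLs, beside 14.1% of all transcripts, with Fbxo7 at 2.06 and Zfand5 at 1.55 on the log2 scale, and Ubqln4 was lower by -1.41. Of 10 genes of the p97 unfoldase, which extracts proteins for the proteasome, 8 fell in OPCs, 6 fell in OLs and 4 declined more slowly in OLs, with Faf1 and Nploc4 at 0.39 and 0.34 per h (adjusted p = 0.00511 and 0.00600).

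The genes of ubiquitin supply and activation split. Of 6 listed, 3 fell and 3 rose in OPCs, beside 81.7% and 4.92% of all transcripts, and none differed in slope between the cell types. Uba6, a ubiquitin-activating enzyme, fell by 0.43 ± 0.07 per h in OPCs (SE, adjusted p = 5.44e-06) and by 0.32 ± 0.06 in OLs (adjusted p = 0.000412). In the list of interferon and antigen presentation genes, 6 of 18 were listed in OPCs and 9 of 18 in OLs. Of the 6 tested for a difference in slope, 1 passed, Tap1, a peptide transporter of antigen presentation, which declined more slowly in OLs by 0.48 ± 0.09 per h (SE, adjusted p = 0.000930).

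The CCT chaperonin, another ring-shaped complex of many subunits, was set beside the proteasome as a like complex. Of its 7 listed mRNAs, 6 were at the half-life ceiling in all replicates, beside 17 of 44 proteasome members and 16.1% of all transcripts, and the median level of the 7 at 6 h was 53.4%, 80.6% and 76.8% in OPCs and 52.3% and 78.8% in OLs. At 0 h 4 of 7 were lower in OLs, with Cct2 at -1.203 and Tcp1 at -0.94 on the log2 scale, beside 7 of 44 proteasome members and 17.5% of all transcripts. Whether the lists differ was not tested.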

How the data were processed

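Libraries of 5-EU-labelled RNA were available for 3 OPC and 2 OL replicates at 0, 1, 2, 4 and 6 h. The authors aligned reads with HISAT2 2.1.0 and quantified canonical coding transcripts with StringTie 1.3.5 on GRCm38 (annotation GENCODE vM9). By the study's account, FPKM of every time point were scaled to spike-in reads. Values at 0 h are taken here as FPKM of whole libraries. The authors removed transcripts under 1 FPKM at 0 h or at 0 FPKM at 1 and 2 h. Half-lives in hours, fitted by the authors by least absolute deviations, were deposited for each replicate, and values just above 6 h were set to 6. Depth per library is unknown, so precision rests on the spread between replicates, and the control without biotin was not analysed here. The study calls the replicates biologically independent experiments, and p-values at 0 h and in half-life measure the spread between these samples.

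All transcripts were fitted with limma 3.58.1 in R 4.3.3, on log2(FPKM + 1) for 0 h and slopes and on log2 half-life, with Benjamini-Hochberg adjustment over all transcripts and a threshold of 0.05. Slope tests treat the libraries of a chase as separate samples. Their p-values measure the scatter of libraries around a straight line in time, not the spread between replicates alone. The fits were tested on simulated data. Alternatives were a pseudocount of 0.1, a filter at 5 FPKM, no trend, other scalings, refitted half-lives, a replicate block and leaving out each replicate. Members and lists were chosen with earlier results of these data known. Named genes were all members past the threshold at 0 h, in half-life or in the slope difference, and the longest- and shortest-lived of each group. For the other lists, up to 4 genes past the threshold per comparison could be named. Psmb2, Psmb3, Psmb10, Psma4, Psme2, Psmd8, Psmd9, Psmd10, Psmd12, Psmd14, Psme1, Psme4, Psmf1, the other members given by range and the sequences shown were chosen after their values were seen. Some results of the other lists are not reported here.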

Additional observations from a re-analysis of the deposited data

Results flagged for a closer look

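The decline of 5 proteasome mRNAs differed between OLs and OPCs by the interaction test, and in each the OL slope was shallower. These are 11.4% of the 44 members, where 27.5% of 8177 transcripts had a shallower slope in OLs. The difference was 0.61 log2 units per h for Psmg2, 0.45 for Psmc2, 0.41 for Psmd5, 0.34 for Psmd7 and 0.33 for Psmc6. In 3 of the 5, Psmg2, Psmc2 and Psmd5, at least 1 OPC replicate was listed at 0 FPKM at 6 h, and no OL replicate was.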

How the results depend on the processing

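At 0 h, 7 members were lower in OLs. This count was 3 without an intensity trend, 3 with libraries centred on their median and 3 with the replicate block. All transcripts called, in either direction, were 2586 in the main fit and 2421, 2589 and 2253 in these. Leaving out each OPC replicate gave between 2 and 11 members, and between 1446 and 2912 of all transcripts called in either direction. The replicate numbers pair no more than 2 samples of each cell type, and same-numbered samples did not deviate together at 0 h (r = 0.059 and 0.010) or in half-life (r = -0.0016 and -0.105). The study matches the OL replicates to 2 OPC replicates without saying which. With the replicate block, the 0 h differences of Psma7, Psmc4, Psmd11 and Psmg2 did not pass (adjusted p = 0.0506, 0.108, 0.135 and 0.178), 0 members changed in half-life, 27 fell in OPCs, 20 fell in OLs and 5 had a shallower slope in OLs. No alternative called a member in half-life. The count of falling members went from 27 to 4 in OPCs and from 19 to 0 in OLs when later libraries were rescaled to the 0 h median, which removes the common decline by construction, and 31 and 28 members then rose, against 33.5% and 27.9% of all transcripts. Leaving out each replicate gave 23 to 27 in OPCs and 12 to 18 in OLs. The 5 shallower slopes became 1 after rescaling, where 8.78% of all transcripts were shallower. They became 1 without the 6 h libraries, and which members passed changed when a replicate was left out. Nothing about members against all transcripts is read from these last fits. Leaving out an OL replicate leaves 1 OL sample per time, which is assumed to vary like the others. Direction reversed, past the threshold for the last only, for the half-life of Psmd11 (-0.24 after rescaling to 1 mean decay curve, -0.26 with replicates centred), the slope difference of Psmc6 without the 6 h libraries (-0.027) and, after rescaling to the 0 h median, the OL slopes of Psmc2 (0.028) and Psmg2 (0.13). Among the alternative values of named genes, 163 kept direction and side of the threshold, 60 kept direction only and 5 reversed. Over all transcripts, the count with a different half-life went from 287 to 1 with replicates centred and to 0 with the replicate block. The cause was not tested.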
